A study of Mus musculus with 15 samples.

Results

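Of 15 RNA sequencing libraries from mouse skin, 3 were chosen by their deposited Krt6b level, which was at least 100 CPM (a count scaled to the library total). Krt6b is the gene of a keratin that keratinocytes make in wounded, hyperplastic or inflamed epidermis. These 3 Krt6b-high libraries were lesional replicate 2, lesional replicate 11 and non-lesional replicate 3, called lesional 2, lesional 11 and non-lesional 3 here, and they are set against the other 12 libraries over all genes. The libraries came from 3-week-old C57BL/6 mice and fell, by their labels, into 5 WT, 5 non-lesional OTULIN-KO and 5 lesional OTULIN-KO libraries. OTULIN-KO mice were Otulin fl/fl and carried K14-Cre, which deletes the gene in keratinocytes alone, whereas the WT mice were littermates with the loxP-flanked alleles and no Cre. Each sample was skin tissue, so fibroblasts, fat, muscle and immune cells with an intact Otulin gene were part of every library. Mice of both sexes were used. Whether 1 animal gave both kinds of skin, or each library came from an animal of its own, is not given in the sources used here.

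OTULIN is a deubiquitinase that removes linear ubiquitin chains, which the enzyme complex LUBAC builds on signalling proteins downstream of TNF and other receptors. Keratinocytes under stress leave their usual programme, switch on the keratins KRT6, KRT16 and KRT17, release the alarmins S100A8 and S100A9, which are small proteins that attract and activate immune cells, and build a different cornified envelope from small proline-rich (SPRR) and LCE3 proteins. These changes are shared by wound edges, psoriatic plaques and other inflamed epidermis, and the same cells answer interferons with genes of antiviral defence and antigen presentation.

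Deposited Krt6b values were 3523 CPM in lesional 2, 8478 CPM in lesional 11 and 221 CPM in non-lesional 3, from 7783, 17417 and 495 counts. The other 12 libraries held 0.852 to 17.6 CPM, the most in WT replicate 1 (WT 1), so non-lesional 3 was the library just inside the threshold and WT 1 the one just outside it. These Krt6b values chose the libraries and are given as a description, and since every other gene was measured in the same libraries, no test is given for the 3 libraries against the 12. Krt6b (ENSMUSG00000023041) is on chromosome 15, 101676023 to 101680287, minus strand (GRCm38). A threshold of 50 or of 200 CPM chose the same 3 libraries. The libraries that passed were 3 of 10 OTULIN-KO and 0 of 5 WT libraries (two-sided Fisher's exact test, p = 0.505, adjusted p = 1 over 2 tests), and 2 of 5 lesional and 1 of 5 non-lesional libraries (p = 1 from the same exact test). With 3 high libraries, a split by genotype could not be more uneven toward OTULIN-KO than this one, so its p-value says nothing about whether a high level goes with genotype, and 2 against 1 library is too few to show whether it goes with the appearance of the skin. The 3 lesional libraries that stayed below the threshold, lesional 5, lesional 8 and lesional 14, held Krt6b levels within the range of the other libraries.

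The libraries held 1962604 to 2567138 counts each, and the 3 Krt6b-high libraries lay within this range, at 2054381 to 2237906. At that depth 1 CPM equals 1.96 to 2.57 counts. The defining skin genes Krt5, Krt14, Krt10, Krt1 and Col1a1 were present in every library, at 144 CPM or more. Non-lesional 3 had the most genes with a count, 20964 against 19463 to 20515 in the others. In TMM-normalised CPM, lesional 11 held 688 CPM of Xist and 0 of the Y-linked gene Ddx3y, whereas lesional 2 and non-lesional 3 held 0.453 and 2.66 CPM of Xist with 115 and 110 CPM of Ddx3y, so the 3 libraries differed in sex. WT 1 and lesional replicate 14 (lesional 14) stood apart from the remaining libraries too, with 1886 and 2380 genes above all others outside the 3.

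Of 14279 genes with at least 10 counts in at least 3 libraries, 296 (2.07%) had all 3 Krt6b-high libraries above all 12 others and 225 (1.58%) had all 3 below. Differences are given as the median log2 CPM of the 3 libraries minus the median of the 12, with a prior count of 2, and CPM are TMM-normalised in all that follows. The genes above had a median difference of 0.85, and 57 of them had a difference of at least 2 and 27 of at least 4, the largest being 9.40. The genes below had a median of -0.68 and a lowest value of -1.91, with 37 at -1 or under. Differences thus reached much further among the higher than among the lower genes, while the median over all 14279 genes was -0.02. Among the genes above, 36 passed the filter only because of the Krt6b-high libraries and could hardly have come out otherwise, and 260 also passed on the other 12 libraries alone. Protein-coding genes made up 280 of the 296 and 202 of the 225. In bulk tissue, fewer cells of a type and less RNA per cell cannot be told apart, which holds for every difference below.

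The strongest differences lay in the alarmins. S100a9 (ENSMUSG00000056071, chromosome 3 of GRCm38, 90692632 to 90695721, minus strand) reached 1703 CPM in lesional 2, 2722 CPM in lesional 11 and 102 CPM in non-lesional 3, against 0 to 7.92 CPM in the others with a median of 1.69. S100a8 (ENSMUSG00000056054, chromosome 3, 90668978 to 90670035, plus strand), whose product pairs with that of S100a9, reached 1279, 2421 and 115 CPM in the same order, against 1.31 to 11.9 CPM with a median of 2.27. The groups were far apart for both genes, and the lowest of the 3 libraries lay well above the highest of the 12, non-lesional replicate 15 (non-lesional 15). Stfa3, a stefin that inhibits cysteine proteases, had 623, 2321 and 60.3 CPM against 1.52 to 8.78 CPM. BC100530, a stefin-like gene beside it, had 719, 2727 and 47.5 CPM against 0.410 to 15.9 CPM. Its exons overlap those of Gm15845 on the opposite strand, and with the strand setting of the counting not stated, counts of the pair cannot be told apart. Stefins are a family of close copies, and since the authors kept uniquely mapped reads only, reads that fit several of Stfa1, Stfa2, Stfa3 and BC100530 are missing from these counts. Of the 22 alarmin and antimicrobial genes listed, 8 passed the filter and 5 were above, namely S100a8, S100a9, Stfa1, Stfa2 and Stfa3, with a list median of 5.83. Only 4 of the 8 passed without the Krt6b-high libraries, 2 of the 5 above among them, and the median was 4.19 over those 4 and 1.73 with no filter.

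Keratins of stressed epidermis followed in the same order of libraries. Krt16 (ENSMUSG00000053797, chromosome 11, 100246091 to 100248902, minus strand), the partner of the KRT6 keratins, had 899 CPM in lesional 2, 2888 CPM in lesional 11 and 97.6 CPM in non-lesional 3, against 4.26 to 91.1 CPM with a median of 12.4. Non-lesional 3 therefore passed the highest of the 12, WT 1, by a small margin only. Krt6a, a close copy of Krt6b that hair follicles also use, had 4964, 15500 and 637 CPM against 229 to 1189 CPM, and Krt17 had 3471, 4876 and 689 CPM against 383 to 894 CPM. In both genes WT 1 lay above non-lesional 3, so only the lesional pair stood clear of the other libraries. The list of 3 stress keratins had a median of 3.84, or 2.36 without lesional 11, with 1 gene above. Hair shaft and inner root sheath genes, of which 12 of 29 passed, had a score of 1.73 in WT 1 and 0.76 in WT replicate 13, whose stress keratin score was 0.14, against 0.999 in lesional 2, 0.49 in lesional 11 and -0.11 in non-lesional 3. A score is the median over a list's genes of a library's log2 difference from the median of the 12. None of these hair genes was above or below in all 3 libraries, their list median was 0.48 (0.17 without lesional 2, 0.27 without WT 1 or without WT replicate 13, 0.24 without non-lesional replicate 12 and 0 with no filter), and the part of hair follicles in the keratin values was not tested.

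**Figure D1:**
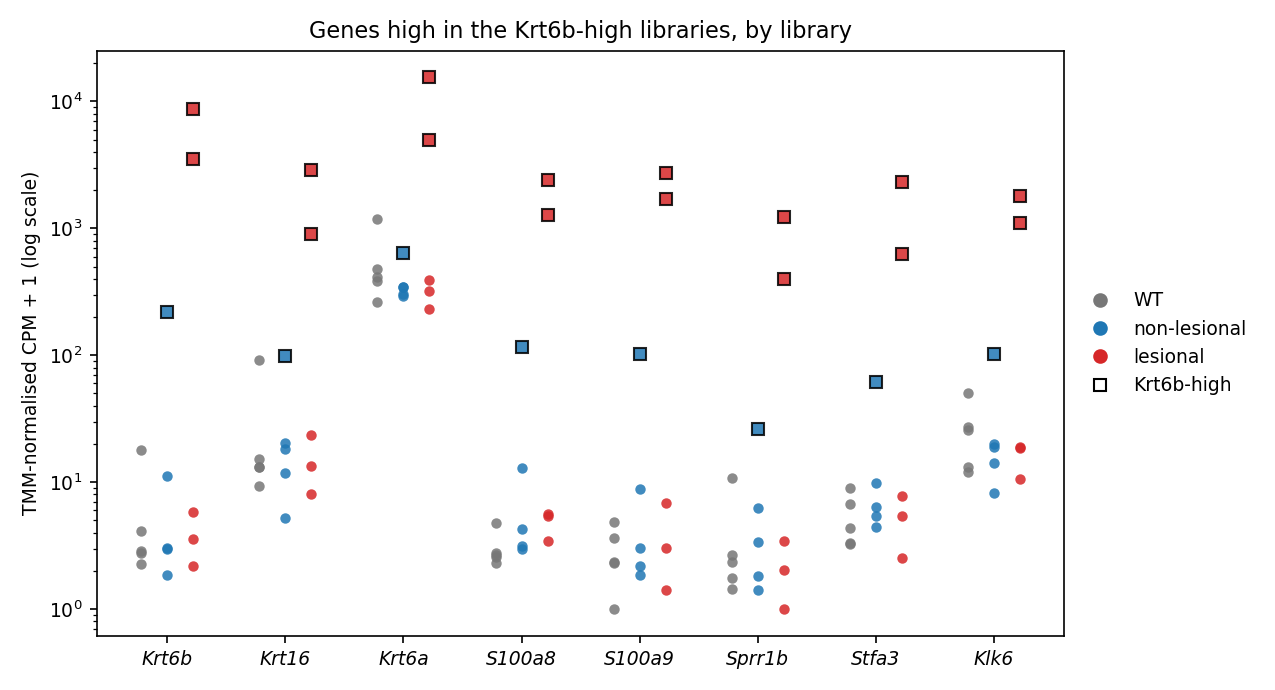
TMM-normalised CPM on a log scale for genes that were higher in the 3 Krt6b-high libraries, in each of the 15 libraries, with squares for those 3 and colours for the labelled groups. The squares of lesional 2 and lesional 11 sit high above all circles. Non-lesional 3 sits between, except for Krt6a, where WT 1 lies above it, and for Krt16 it lies close to WT 1 (97.6 against 91.1 CPM).

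Genes of the cornified envelope of inflamed epidermis come next. Sprr1b, a cross-linked envelope precursor, had 400, 1221 and 25.3 CPM in lesional 2, lesional 11 and non-lesional 3 against 0 to 9.70 CPM, and Sprr2d had 277, 402 and 9.76 CPM against 0 to 3.56 CPM. Lce3a, of the late cornified envelope genes tied to barrier repair, had 89.2, 127 and 12.9 CPM against 0 to 1.16 CPM. All 3 libraries lay above all 12 for each of these genes, though non-lesional 3 rested on 57, 22 and 29 counts. Lce3f had 89.2, 120 and 7.098 CPM against 0 to 3.10 CPM, Lce3d had 82.4, 124 and 4.44 CPM against 0 to 3.88 CPM, and Lce3e had 66.1, 102.9 and 7.098 CPM against 0 to 0.44 CPM. Sprr2i had 78.8, 88.2 and 6.65 CPM against 0 to 1.32 CPM. Of 21 listed Sprr and Lce3 genes, 12 passed the filter and 11 were above, with a list median of 6.61. Just 3 of the 12 passed on the other libraries alone, since most of these genes were near 0 in the other libraries, so the 11 describe the Krt6b-high libraries and are no independent support. The median was 5.45 over those 3 genes, and 4.27 without lesional 11 over the 5 genes that then passed. The exception was Sprr1a, with 890, 1251 and 289 CPM against 29.98 to 474 CPM, where WT 1 again lay above non-lesional 3. Reads that fit several members of these families were dropped before counting, so levels of close copies are uncertain.

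The proximal promoters of 4 of these Sprr genes are shown because all 6 Sprr genes of the 11 held a match to TGANTCA, the site of AP-1 factors, which act in stressed keratinocytes. Each sequence is the 250 bases before the RefSeq start (GRCm38.p6), written 5′ to 3′ on the gene's strand with the match in capitals. The windows are chr3:92338890-92339139, plus strand, for Sprr2d, chr3:92351893-92352142, plus strand, for Sprr2e, chr3:92364937-92365186, plus strand, for Sprr2f, and chr3:92438780-92439029, minus strand, for Sprr1b.
Sprr2d: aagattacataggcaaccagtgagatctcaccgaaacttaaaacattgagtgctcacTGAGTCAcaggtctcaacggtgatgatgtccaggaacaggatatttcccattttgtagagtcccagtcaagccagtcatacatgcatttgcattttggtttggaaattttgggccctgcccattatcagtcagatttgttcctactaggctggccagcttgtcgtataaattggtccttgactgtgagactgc
Sprr2e: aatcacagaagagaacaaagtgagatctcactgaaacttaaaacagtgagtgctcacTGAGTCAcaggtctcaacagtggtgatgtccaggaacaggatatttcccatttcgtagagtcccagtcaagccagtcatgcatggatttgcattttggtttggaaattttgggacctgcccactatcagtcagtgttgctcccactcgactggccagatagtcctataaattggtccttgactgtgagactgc
Sprr2f: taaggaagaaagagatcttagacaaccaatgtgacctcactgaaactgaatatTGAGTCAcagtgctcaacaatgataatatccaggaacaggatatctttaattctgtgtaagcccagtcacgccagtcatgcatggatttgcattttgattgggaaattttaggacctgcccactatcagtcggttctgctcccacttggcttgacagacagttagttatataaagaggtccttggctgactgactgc
Sprr1b: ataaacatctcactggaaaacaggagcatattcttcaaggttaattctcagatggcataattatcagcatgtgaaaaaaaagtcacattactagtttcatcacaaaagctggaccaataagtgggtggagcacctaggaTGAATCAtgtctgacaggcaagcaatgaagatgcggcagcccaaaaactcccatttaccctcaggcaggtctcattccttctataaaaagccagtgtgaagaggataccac

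The match began 193 bases before the start in Sprr2d and Sprr2e, 197 bases in Sprr2f and 111 bases in Sprr1b. The windows of Sprr2d and Sprr2e are identical at 220 of 250 positions (88%) without gaps, and those of Sprr2d and Sprr1b at 63 (25.2%), so the matches in these near-identical Sprr2 windows are not separate finds. Searched on both strands, the motif was in 6 of the 11 Sprr and Lce3 promoters (54.5%), in 29 of 260 promoters (11.2%) of the 215 matched genes above, in 7 of 204 (3.43%) of the genes below and in 6.75% of all 32851 promoters of the same length. None of the 5 Lce3 promoters held these letters in this window. A match is a description of the sequence and says nothing about binding.

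Among epidermal proteases and their inhibitors, kallikreins led the genes above. Klk6, a kallikrein serine protease of the cornified layer, had 1102 CPM in lesional 2, 1795 CPM in lesional 11 and 102 CPM in non-lesional 3, against 7.25 to 49.6 CPM with a median of 17.8. Klk13 had 239, 561 and 16.0 CPM against 0.410 to 6.61 CPM. Klk7, the chymotrypsin-like kallikrein that cleaves corneodesmosomes, was abundant everywhere, with 2613, 3999 and 963.5 CPM against 497 to 936 CPM. No other library reached any of the 3 for these genes, although the margin between non-lesional 3 and WT 1 was narrow for Klk7. Of the 17 genes listed, 13 passed and 7 were above (Klk6, Klk7, Klk9, Klk13, St14, Serpinb2 and Serpinb3b), with a median of 0.97, and 5 of the 7 passed without the 3 libraries. Exons of Serpinb2 overlap those of Serpinb10 on the same strand, and kallikreins share sequence.

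Some of the genes above lay in gene clusters, counted here in fixed windows of 1 Mb, where 2.07% of all genes that passed were above. On chromosome 3 of GRCm38, from 92000001 to 93000000, 16 of 35 genes that passed were above, the Sprr, Lce3 and part of the Lce1 genes among them. The stefin window on chromosome 16, from 36000001 to 37000000, held 7 of 17. Further windows were those of Il1f5, Il1f6, Il1f8 and Il1f9 on chromosome 2, from 24000001 to 25000000, with 4 of 13, of the kallikreins on chromosome 7, from 43000001 to 44000000, with 4 of 17, and of S100a8, S100a9, S100a14 and S100a16 on chromosome 3, from 90000001 to 91000000, with 4 of 26. Since neighbours in these windows are mostly copies of one another, they are not independent counts.

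Among cytokine genes, those of the IL-36 branch of the IL-1 family, which keratinocytes use to amplify inflammation, are given first. Il1f6, which encodes IL-36α, had 16.8 CPM in lesional 2, 26.2 CPM in lesional 11 and 8.43 CPM in non-lesional 3, against 0 to 3.05 CPM. Il1f9, which encodes IL-36γ, had 50.7, 76.1 and 20.4 CPM against 9.31 to 17.9 CPM, and Il1f5, which encodes the receptor antagonist of this branch, had 118, 217 and 71.4 CPM against 39.8 to 70.35 CPM. In non-lesional 3 the distance to the highest of the 12 was small for Il1f9 and Il1f5. Of the 14 IL-1 family entries listed, 4 of which are other names of genes given under their Il1f names, 9 passed and 4 were above (Il1f5, Il1f6, Il1f8 and Il1f9). Just 2 of these 4 passed on the other libraries alone, so the count is a description. The median was 1.18, or 0.70 over the 7 genes that also passed on the other libraries and 0.68 without lesional 11. Il33 had 44.8 and 112.4 CPM in the lesional pair, but 14.6 CPM in non-lesional 3, within the 10.1 to 15.4 CPM of the others.

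Some cytokine genes were high in the lesional pair and not in non-lesional 3. Cxcl2, a chemokine for neutrophils, had 152 counts in lesional 2 and 585 in lesional 11, but 1 count in non-lesional 3, against at most 4 in any other library. Il1b had 54, 392 and 5 counts against at most 8, and Ccl3 had 39, 120 and 0 against at most 2. Non-lesional 3 lay within the range of the 12 for all 3 genes, so high counts of these genes were seen in the lesional pair alone. Il6 (1, 6 and 2 counts) and Tnf (7, 23 and 3 counts) were near the limit of detection, with at most 1 and 4 counts elsewhere, and Ifnb1 had 0 counts in all 15 libraries. A count of 0 allows up to 3 counts, which equal 1.17 to 1.53 CPM here, for counting error only. Of 26 chemokine genes listed, 13 passed and 2 were above, Cxcl9 (17.7, 62.0 and 10.7 CPM against 1.79 to 6.325 CPM) and Cxcl16 (79.3, 113 and 37.3 CPM against 21.7 to 36.0 CPM), with a median of 0.19, or 1.13 with no filter. Exons of Cxcl16 overlap a gene on the opposite strand. Of 23 other cytokine and TNF pathway genes listed, 7 passed and 1 was above, Nfkbiz, a co-factor of NF-κB induced by IL-1, with 47.1, 53.45 and 48.8 CPM against 21.4 to 40.3 CPM, and their median was 0.52.

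Markers of immune cells differed between the lists. Of 14 neutrophil genes listed, 2 passed, none was above, and their score was 0.80 in lesional 2, 2.92 in lesional 11 and -0.65 in non-lesional 3, against -0.36 to 0.60 in the others. The defining genes Ly6g and Csf3r had 0 counts in every library, and Cxcr2, the receptor for CXCL2, had 11, 11 and 0 counts against at most 2. S100a8 and S100a9, which neutrophils also make, were high in all 3 libraries, and the neutrophil list summed to 46.2 CPM in lesional 2, 222 CPM in lesional 11 and 17.7 CPM in non-lesional 3, against 17.0 to 32.4 CPM in the 12. Its part in the alarmin values was not tested. Of 19 macrophage and monocyte genes, 16 passed, with a list median of 0.50, or 0.26 without lesional 11. Their score was 0.57 in lesional 2, 0.76 in lesional 11 and -0.04 in non-lesional 3, against -0.38 to 0.65 in the others. Lesional 2 was above all 12 for 7 of the 16 and lesional 11 for 9, against 14% and 23.5% of all genes. Adgre1, which encodes the macrophage antigen F4/80, had 19.9, 18.2 and 17.3 CPM, within the 6.61 to 23.2 CPM of the other libraries. Langerhans cell, T cell and mast cell genes, 11 of 16 passing, had a median of -0.18, or 0.16 with no filter, scores of 0.23, -0.40 and -0.38 in lesional 2, lesional 11 and non-lesional 3, and no gene above or below.

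Of the interferon-induced genes listed, most were high in the lesional pair and few in non-lesional 3. Ifi44, an interferon-induced gene of the cytoplasm, had 79.7 CPM in lesional 2, 219 CPM in lesional 11 and 11.53 CPM in non-lesional 3, against 0.846 to 9.98 CPM with a median of 4.13. Ifih1, a sensor of double-stranded RNA, had 63.4, 101 and 43.0 CPM against 12.98 to 28.6 CPM. For both genes non-lesional 3 passed every other library. Ifit1, which binds foreign RNA, had 53.9, 175 and 17.3 CPM against 1.31 to 28.4 CPM, and non-lesional replicate 12 (non-lesional 12) lay above non-lesional 3. Of 43 type I IFN-induced genes listed, 36 passed and 7 were above, Ifi44, Oas2, Ifih1, Xaf1, Bst2 and Ifi35 among them, with a median of 1.62. On the other 12 libraries alone 32 of the 36 passed, 6 of the 7 above among them, and the median over those 32 was 1.43. Lesional 2 alone was above all 12 for 33 of the 36, lesional 11 for 35 and non-lesional 3 for 7, against 14%, 23.5% and 7.44% of all genes. The list score was 1.62, 2.43 and 0.73 in these libraries, and non-lesional 12 and non-lesional 15 reached 0.69 and 0.64 without high Krt6b. Ifit and Oas genes are families of close copies, so reads that fit several copies are missing from their counts.

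Genes of antigen presentation and of the response to IFN-γ had scores of 1.09 in lesional 2, 1.70 in lesional 11 and 0.21 in non-lesional 3, the last below the 0.38 of non-lesional 12. B2m, the light chain of MHC class I, had 2609 CPM in lesional 2, 4293 CPM in lesional 11 and 1595 CPM in non-lesional 3, against 949 to 1516 CPM. H2-K1, a class I heavy chain, had 1022, 1390 and 673 CPM against 366 to 600.5 CPM, and Tap2, a peptide transporter, had 43.0, 51.4 and 22.6 CPM against 0.487 to 19.0 CPM. The 3 libraries were the highest for each of these 3 genes. Of 24 genes listed, 23 passed and 6 were above (B2m, H2-K1, H2-D1, Tap2, Psmb9 and Gbp2), with a median of 1.13, or 0.65 without lesional 11. The MHC class II genes H2-Aa, H2-Ab1, H2-Eb1 and Cd74 of the same list had differences of 0.29, 0.13, 0.01 and 0.24 and were not among them. Exons of Tap2 and Psmb9 overlap genes on the opposite strand, and class I genes share sequence.

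The promoters of Ifit1 and Ifit3 are shown because both hold 2 matches to the interferon response element, GAAA followed after any 2 bases by GAAA, which lie on the other strand and so appear in capitals as its complement, TTTC after TTTC. The windows are the 250 bases before the RefSeq start of GRCm38.p6, chr19:34640639-34640888, plus strand, for Ifit1 and chr19:34583279-34583528, plus strand, for Ifit3, written 5′ to 3′ on the gene's strand.
Ifit1: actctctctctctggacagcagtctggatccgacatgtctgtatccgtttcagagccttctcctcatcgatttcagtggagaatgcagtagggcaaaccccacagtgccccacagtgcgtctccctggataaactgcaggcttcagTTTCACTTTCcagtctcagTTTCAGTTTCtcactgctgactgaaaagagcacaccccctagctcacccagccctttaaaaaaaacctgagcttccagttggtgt
Ifit3: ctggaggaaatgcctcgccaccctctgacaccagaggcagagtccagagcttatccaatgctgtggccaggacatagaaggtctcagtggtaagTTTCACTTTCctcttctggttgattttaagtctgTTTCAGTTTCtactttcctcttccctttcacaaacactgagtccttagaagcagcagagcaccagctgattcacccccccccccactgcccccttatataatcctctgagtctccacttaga

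The matches began 104 and 85 bases before the start in Ifit1 and 156 and 122 bases in Ifit3. Over both strands, 7 of the 31 promoters (22.6%) of the 26 matched genes of the type I IFN list held the motif, against 2.98% of all promoters. Among the 260 promoters of the genes above, the share was 2.69%. A search for TTCNNNGAA, the site of STAT factors, gave 6.92% in the genes above and 7.02% in all promoters, and one for a relaxed form of the NF-κB site, GGGA followed after any 4 bases by CC, gave 25% in the genes above, 27.5% in the genes below and 17.6% in all promoters.

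**Figure D2:**
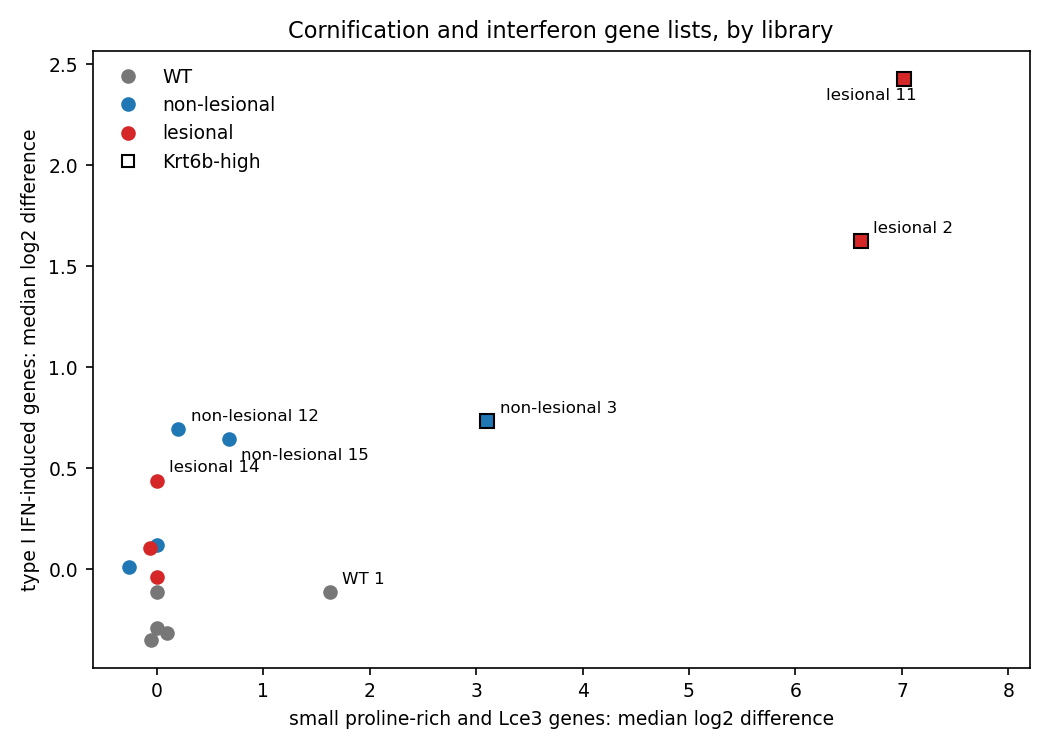
Score of the type I IFN list against that of the Sprr and Lce3 list in each of the 15 libraries, both in log2 units relative to the median of the 12 others. Lesional 2 and lesional 11 lie far right and high, non-lesional 3 lies at 3.11 on the horizontal axis with an interferon score of 0.73, and non-lesional 12 and non-lesional 15 have interferon scores of 0.69 and 0.64 with horizontal values of 0.20 and 0.68.

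The 12 other libraries allowed the interferon and epidermal lists to be looked at without high Krt6b, a comparison chosen after their values had been seen and given without a test. Between the 7 other OTULIN-KO and the 5 WT libraries, 17 of 14017 genes (0.121%) had all 7 above all 5, and 8 (0.0571%) had all 7 below. All 32 type I IFN-induced genes that passed here had a higher median in the OTULIN-KO libraries, as did 50.8% of all genes, with a list median of 0.48, and Rtp4 was the 1 list gene without overlap. The stress keratins, the alarmins and the Sprr and Lce3 genes had medians of -0.02, 0.17 and -0.38 in the same libraries. Interferon scores ran from -0.35 to -0.11 in WT and from -0.04 to 0.69 in the 7 other OTULIN-KO libraries, and the lesional pair lay above both with 1.62 and 2.43.

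Genes of normal epidermal differentiation had no common direction. Of 28 genes, 27 passed and 3 were above, Lce1g, Lce1j and Lce1k, which lie beside the Lce3 genes, with a list median of 0.44. Flg2 and Lor, which encode filaggrin-2 and loricrin of the normal envelope, had 841 and 1767 CPM in lesional 2 and 443 and 859 CPM in lesional 11, below the lowest other values of 1176 and 2343 CPM, but 1208 and 2809 CPM in non-lesional 3, within the range of the others. Casp14, a protease of the cornified layer, had 231, 595 and 70.5 CPM against 61.3 to 117 CPM. Both directions were therefore seen in the lesional pair, while non-lesional 3 stayed within the range of the 12 for these genes. Krt10, the keratin of suprabasal cells, had 2953, 1377 and 3303 CPM and stayed within the 1050 to 4997 CPM of the other libraries.

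In the basal layer, 1 keratin was lower in all 3 libraries. Krt15, a keratin of resting basal and hair follicle stem cells, had 1165 CPM in lesional 2, 641 CPM in lesional 11 and 2009 CPM in non-lesional 3, against 2083 to 3421 CPM with a median of 3036. Col17a1, a collagen of hemidesmosomes that anchor basal cells, had 237, 186 and 255 CPM against 270.5 to 365 CPM. Neither gene overlapped between the groups. Krt14, the main basal keratin, went the other way in the lesional pair, with 3129 and 5966 CPM, while non-lesional 3 with 1383 CPM stayed within the 648 to 1454 CPM of the others. Of the 10 basal genes, all passed, 0 were above and 2 below, with a median of -0.10. Of 30 proliferation genes, 29 passed and none was above or below, with a median of 0.24. Mki67, which encodes Ki-67, had 59.3, 62.5 and 36.4 CPM against 15.9 to 70.6 CPM. Dividing hair follicle cells express these genes as well, and the proliferation score of the 12 others spread from -0.89 in WT 1 to 0.34 in non-lesional 12, against 0.29, 0.91 and -0.07 in the 3 libraries.

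The genes below are given by their largest differences, with Bmp4 and Disp1 added after their values were seen. Sfrp2, a secreted Wnt modulator of fibroblasts, had 14.95 CPM in lesional 2, 12.1 CPM in lesional 11 and 15.5 CPM in non-lesional 3, against 19.6 to 103 CPM with a median of 50.7. Its exons overlap those of Gm26771 on the opposite strand, so the pair counts as 1 signal. Gli1, the transcription factor and target of hedgehog signalling, had 10.4, 11.1 and 14.6 CPM against 15.9 to 65.0 CPM, and Rspo3, which enhances Wnt signalling, had 7.25, 9.08 and 9.32 CPM against 14.7 to 35.1 CPM. The 3 libraries were close to each other for all of these genes and none reached the lowest of the 12, although the distance to it was small. Exons of Gli1 and Rspo3 also overlap genes on the opposite strand. Bmp4 had 88.3, 61.0 and 69.65 CPM against 105 to 185 CPM, and Disp1, which releases hedgehog ligands, 2.72, 3.53 and 5.77 CPM against 6.34 to 17.6 CPM. Cpz, a carboxypeptidase that acts on Wnt proteins, had 28.1, 20.2 and 45.7 CPM against 47.1 to 146 CPM. Crispld1, whose exons overlap Gm16070 on the opposite strand, had 4.08, 5.55 and 12.9 CPM against 15.1 to 24.95 CPM. Hdac11, a histone deacetylase, had 1.81, 2.02 and 0.887 CPM against 3.59 to 10.55 CPM, and the lincRNA Gm12589 had 0.906, 3.53 and 1.77 CPM against 4.015 to 8.76 CPM, both on few counts in the 3 libraries. Slc12a1 and Dync2li1 had the most negative differences, -1.91 and -1.90, on at most 1 count in each of the 3 libraries, so their size depends on the prior count.

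**Figure D3:**
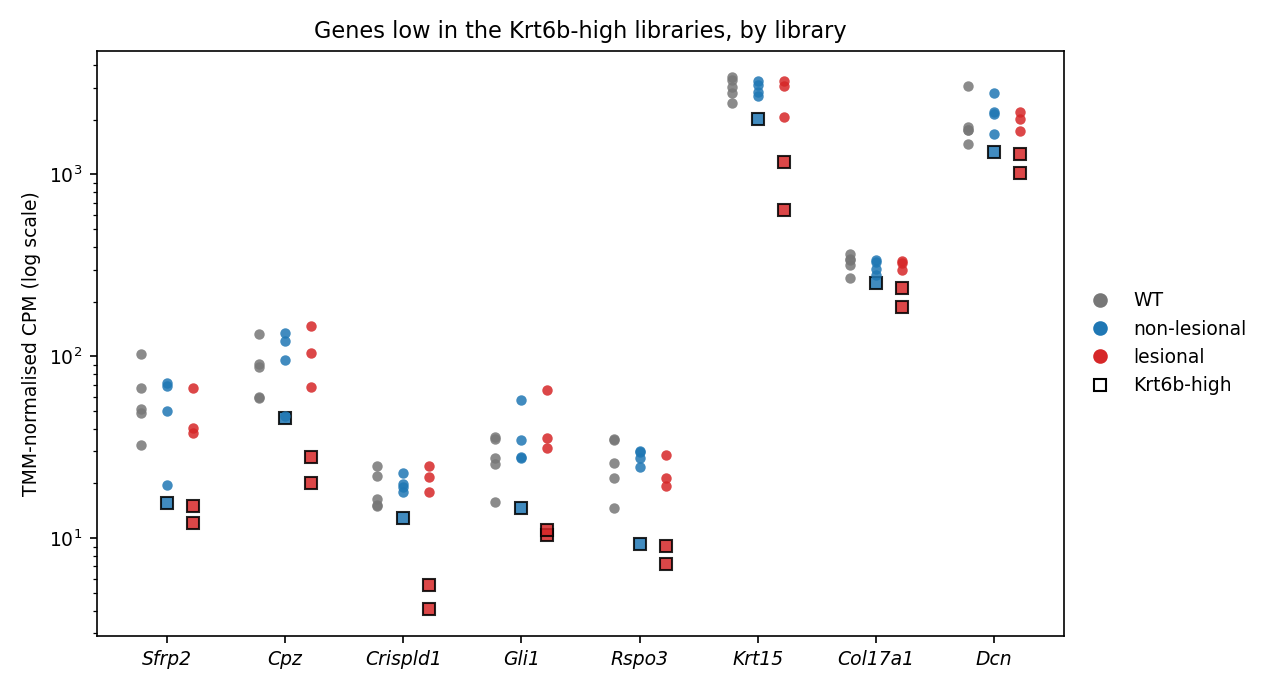
TMM-normalised CPM on a log scale for genes that were lower in the 3 Krt6b-high libraries (squares), in each of the 15 libraries. The squares lie below all circles for each gene, with a small gap for some, as for Krt15 (2009 CPM in non-lesional 3 against 2083 CPM in the lowest other library).

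Markers of other tissue layers were lowest in lesional 11 for the fibroblast and muscle lists, while lesional 2 lay within the range of the 12 for both. Of 18 dermal fibroblast and matrix genes, 17 passed and 1 was below, Dcn, a collagen-binding proteoglycan, with 1296, 1025 and 1322 CPM against 1463 to 3051 CPM, and the list median was -0.45. Col1a1 had 9376, 5917 and 10570 CPM against 9374 to 26750 CPM, so lesional 11 alone was under the other libraries. The list score was -0.35, -0.81 and -0.54 in lesional 2, lesional 11 and non-lesional 3, and non-lesional 12 had -0.62. Of 14 adipocyte genes, 13 passed and 1 was below, Plin4, a lipid droplet protein, with 59.8, 46.9 and 80.3 CPM against 83.5 to 149 CPM, for a median of -0.68. The adipocyte score was -0.78, -0.97 and -0.16 in the 3 libraries, while WT replicate 7 had the lowest of all, -1.15. The list summed to 3146, 2334 and 4864 CPM, against 4315 to 7008 CPM. Skeletal muscle genes, all 20 of which passed, had scores of -0.58, -2.63 and 0.19 and summed to 22820 CPM in lesional 2, 5440 CPM in lesional 11 and 39710 CPM in non-lesional 3, against 22370 to 51080 CPM. The lowest muscle score among the 12 was -0.63, in non-lesional replicate 9. Lesional 11 thus held the least muscle RNA by far, and none of these genes was above or below in all 3. The part of tissue layers in the lower genes was not tested.

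Melanocyte genes, 6 of 9 passing, were low in all 3 libraries by score (-0.69, -1.10 and -0.57), although none of the 6 was below by itself and WT 1 reached -0.51. Dct, which makes melanin precursors, had 42.6, 32.8 and 73.6 CPM against 48.9 to 148 CPM. Sebaceous gland and lipid synthesis genes, all 21 of which passed, had scores of 0.31 in each of the 3 libraries, above the 0.26 of the highest other library, with Elovl3 and Far2 above. Elovl3, which lengthens fatty acids for sebum, had 36.7, 72.6 and 22.6 CPM against 8.13 to 21.4 CPM. Their list median was 0.37. Erythrocyte genes, 7 of 8 passing, had a median of -0.40 with none above or below (-0.24 without lesional 2, -0.63 without lesional 11 and -0.007 over 6 genes with WT libraries alone as the others). Genes of OTULIN, linear ubiquitin and death signalling had a median of 0.15, or 0.02 without lesional 11, with scores of 0.25, 0.51 and -0.12, and none of the 14 of 16 that passed was above or below. Otulin itself had 27.2, 24.2 and 30.6 CPM against 12.3 to 28.3 CPM, which does not check the deletion, since other skin cells keep the gene.

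**Figure D4:**
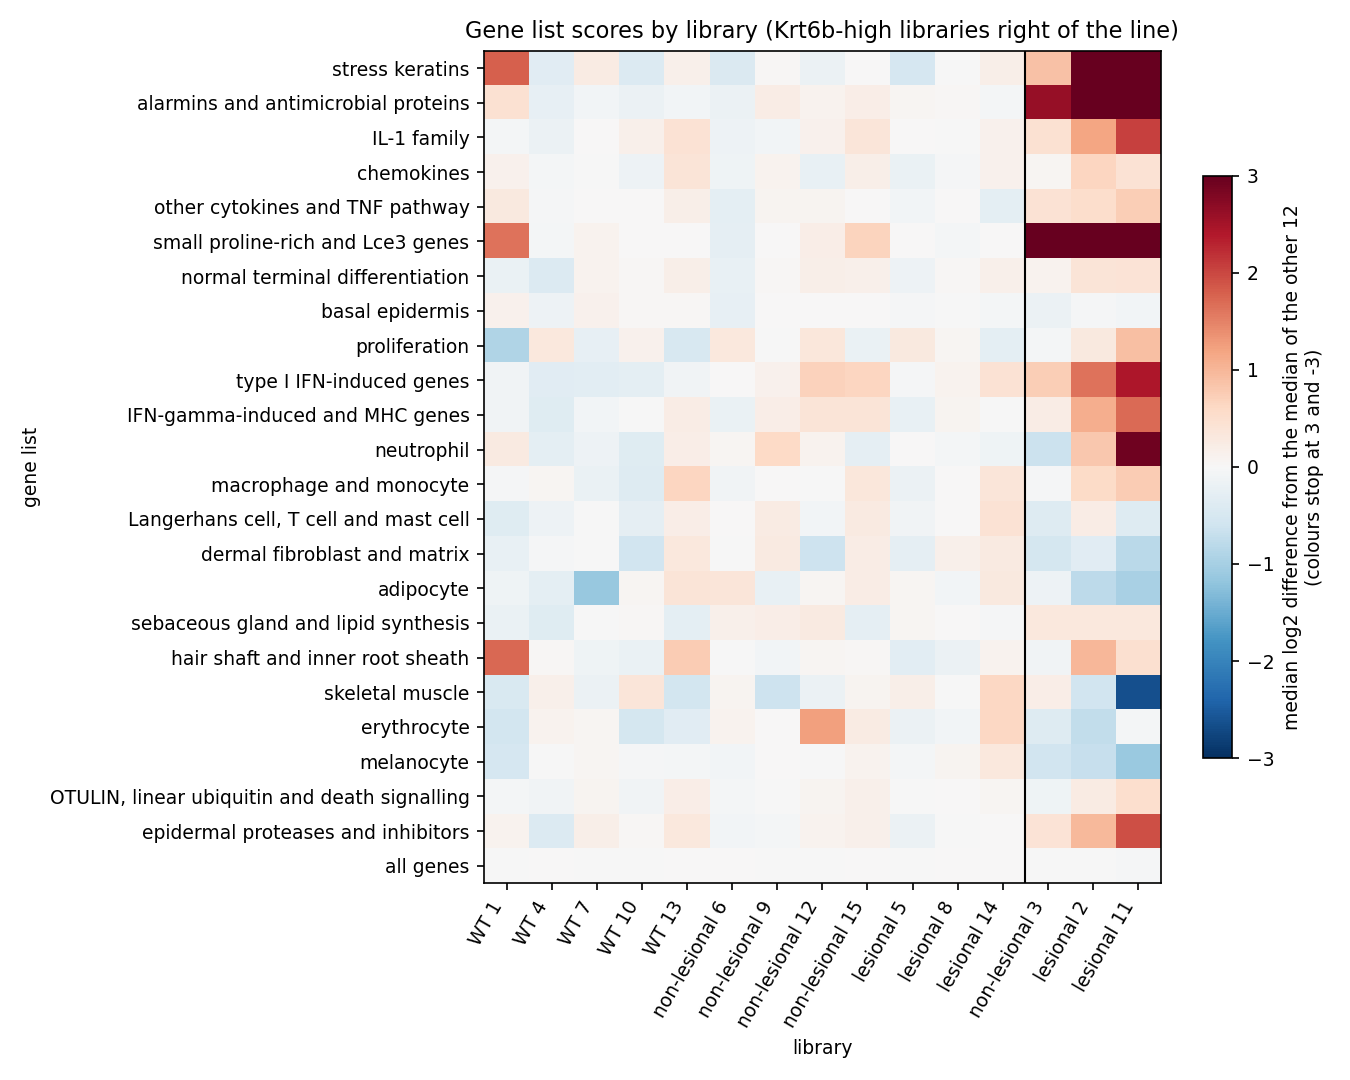
Scores of the gene lists (vertical axis) in all 15 libraries (horizontal axis, the 3 Krt6b-high libraries right of the line), as the median log2 difference from the median of the 12 others, with colours that stop at 3 and -3. The Sprr and Lce3, alarmin and stress keratin lists are the strongest in the 3 libraries (6.61, 5.83 and 3.84 in lesional 2), the interferon lists also vary among the others, and the muscle list is lowest in lesional 11 (-2.63).

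Outside the lists, further genes above were named after their values were seen. Stat3, Socs3, Osmr, Cebpb and Junb were picked from the 296 in this way, so that they were above is no finding about them as a group. Junb, a subunit of AP-1, had 158, 359 and 67.4 CPM in lesional 2, lesional 11 and non-lesional 3 against 23.8 to 59.1 CPM, and Areg, a ligand of the EGF receptor, had 18.1, 37.3 and 4.44 CPM against 0.438 to 2.87 CPM. Slc2a1, the glucose transporter GLUT1, had 85.2, 178 and 37.3 CPM against 9.25 to 35.01 CPM, and Egln3, a hypoxia-induced hydroxylase, had 210, 321 and 57.2 CPM against 23.6 to 40.15 CPM. The chaperones of the endoplasmic reticulum Hspa5 and Hsp90b1 had a flatter pattern, with 1297, 1041 and 1085 CPM of Hspa5 against 510.5 to 948 CPM and 806, 672 and 701 CPM of Hsp90b1 against 378 to 593 CPM. For both chaperones the value of non-lesional 3 lay between those of the lesional pair, which was not so for the alarmins. Exons of Cebpb, Junb and Stat3 overlap genes on the opposite strand and those of Hsp90b1 genes on both. Uox, which encodes urate oxidase, had 107, 126 and 10 counts in the 3 libraries and 0 counts in all 12 others, each of which allows up to 3 counts. The uncharacterised gene 2610528A11Rik had 155, 614 and 12.4 CPM against 0 to 3.08 CPM.

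Non-lesional 3 was the library that limited the genes counted, since without it the genes above numbered 1416 and the genes below 1015. Both lesional libraries lay above all 12 others for 1437 genes, 296 of which are the genes above, and below all 12 for 1016, 225 of which are the genes below. These values share the 12 other libraries, so the differences of each library are given side by side, with no test. Where the smaller log2 difference of the lesional pair was under 1 (1071 genes), the median difference was 0.55 in lesional 2, 0.81 in lesional 11 and 0.09 in non-lesional 3. Between 1 and 2 (262 genes) the medians were 1.34, 1.93 and 0.39, and between 2 and 4 (74 genes) they were 2.597, 3.56 and 0.85. Above 4 (30 genes) they were 6.35, 7.31 and 2.86, and 27 of these 30 genes, with non-lesional 3 above all 12 others as well, are among the 296. Taken alone, 2002 genes were higher in lesional 2 than in all 12, 3360 in lesional 11 and 1062 in non-lesional 3, and for each of the 12 against the other 11 the number ran from 816 to 2380. Lesional 2 and non-lesional 3 lay within that range, and lesional 11 above it.

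Among genes far above the other libraries in the pair, the levels in non-lesional 3 were lower. The excess of a library was taken as its CPM minus the median of the 12. In 39 genes both lesional libraries had an excess of at least 50 CPM and lay more than 2 log2 units above the highest of the 12. These criteria were set after the values were seen. Choosing genes for high values in the pair lowers the share that non-lesional 3 can reach, so these shares are a description of the 39 genes only. The excess in non-lesional 3 was 7.55% of that in lesional 2 as a median over genes, between 1.76% for Slc5a1, a sodium-dependent glucose transporter, and 25.3% for Rptn, a protein of the cornified envelope. Relative to lesional 11 the median was 3.06%, and the excess of lesional 11 was 201% of that of lesional 2. On the log2 scale, the 296 genes above had medians of 0.87 in lesional 2, 1.13 in lesional 11 and 0.54 in non-lesional 3, and the 225 genes below had -0.68, -0.90 and -0.55. Both sets were chosen with non-lesional 3 beyond all 12, which brings its values toward those of the pair. Without that condition the medians were 0.68, 1.03 and 0.15 over the 1437 genes above in the lesional pair, and -0.66, -0.97 and -0.15 over the 1016 below.

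**Figure D5:**
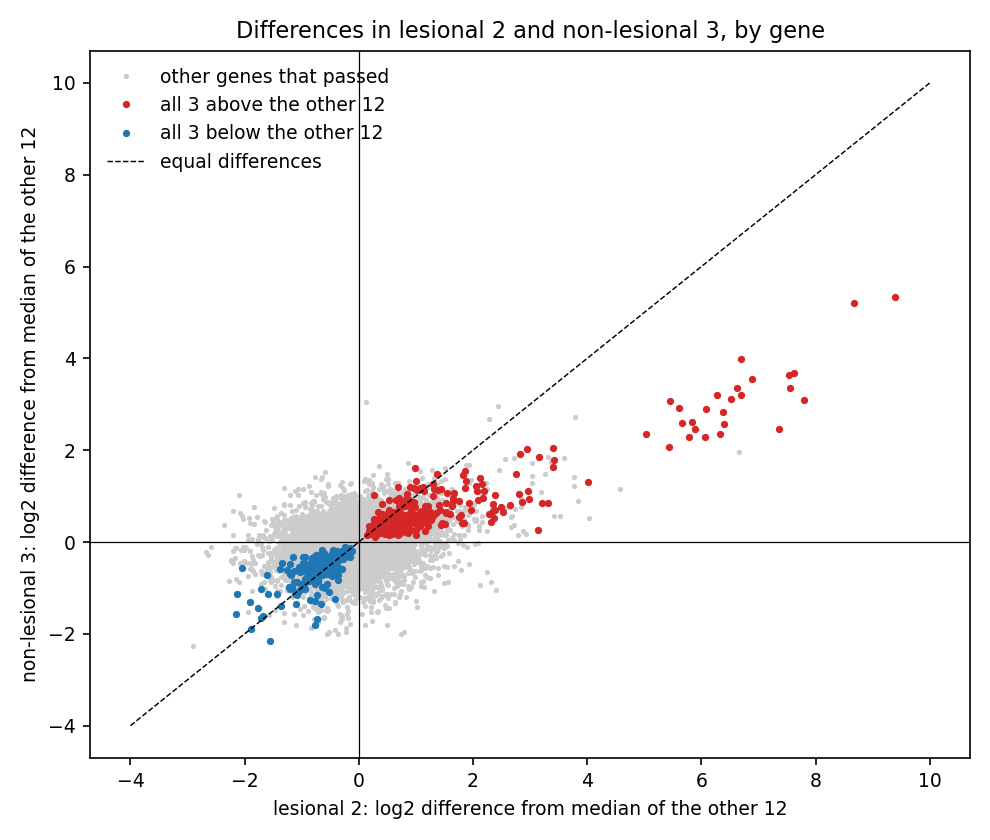
Log2 difference from the median of the 12 others in non-lesional 3 (vertical axis) against lesional 2 (horizontal axis), 1 point a gene, with the same 12 libraries behind both axes, genes above and below in all 3 libraries in colour and a dashed line of equal differences. The genes above have medians of 0.54 in non-lesional 3 and 0.87 in lesional 2, and the genes below -0.55 and -0.68, both sets chosen with non-lesional 3 beyond all 12.

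For each of the 3 libraries, the 8 genes with the largest margin over the other 14 were listed, and 5 of them (Gm15845, Stfa2, 2610528A11Rik, Fabp5l2 and Lce1j) were also among the genes above in all 3. In lesional 11 they were Cd14, Gm15845, Mmp9, Cxcl10, Stfa2, 2610528A11Rik, Bcl3 and Fabp5l2. Cd14, a co-receptor for bacterial lipopolysaccharide on myeloid cells, had 51.4 CPM there, against 7.25 CPM in lesional 2, 1.33 CPM in non-lesional 3 and at most 5.72 CPM elsewhere, and Mmp9, a gelatinase of neutrophils and wound keratinocytes, had 92.3 CPM against 19.9, 3.11 and at most 11.2 CPM. Lesional 2 had smaller margins, in Dact2, Srf, Gm43817, Gpr82, Lce1j, Il2rb, Gm13092 and 1500015O10Rik, each under 60 CPM, with 53.9 CPM for Lce1j against 29.1 CPM in the highest of the 12. Non-lesional 3 had Gm10800, Ccdc69, Bco1, Cadm2, Slc9a2, Tsga10, BB365896 and Gm43466, led by Gm10800 with 106 CPM against 6.325 to 19.8 CPM in the 12. None of these last 8 was among the genes above, and no gene of the inflammatory lists was among them.

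The comparisons by label were run with and without the 3 libraries. For lesional against WT skin, edgeR's quasi-likelihood test gave 0 of 12918 genes (0%) at an adjusted p below 0.05 and 621 at an unadjusted p below it, or 394 with lesional 2 and lesional 11 left out. These p-values set the difference between labels against the spread of libraries within a label, which may be technical. With the lesional pair kept in, that spread includes the gap between the pair and the other lesional libraries. DESeq2's Wald test called 14 genes, all higher in lesional libraries, 10 of which are S100a8, S100a9, Stfa1, Stfa3, BC100530, Klk13, Krt6b, Uox, Ifi44 and 2610528A11Rik, named after their values were seen. For non-lesional against WT skin, edgeR gave 0 of 13021 genes (0%) and 411 by the unadjusted p, or 494 when non-lesional 3 was left out. DESeq2 called 1 gene there, Ifit1. The type I IFN list had a median log2 fold change of 1.40 with the lesional pair and 0.42 without it over 29 genes, and in non-lesional libraries 0.68 with non-lesional 3 and 0.59 without it. The Sprr and Lce3 list went from 4.25 to -1.56 over the 3 genes tested, in a comparison that includes WT 1, whose score for this list was 1.63 against -0.06 to 0.10 in the other WT libraries. Without the pair, 28 of the 29 interferon genes had a positive log2 fold change in lesional libraries, against 6525 of all 13415 genes in that fit.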

How the data were processed

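The authors prepared 3′ mRNA libraries (QuantSeq) from 15 skin samples, clipped adaptors with cutadapt 2.10, mapped reads with Subread to GRCm38, kept uniquely mapped primary reads of high quality with SAMtools 1.7-2 and, with featureCounts 2.0.1, deposited the count of matches over the exons of each gene, a match over several genes counting for each. Strand setting and annotation release are not given in the sources used here. The CPM deposited by the authors are each count over its library total, and they served to choose the 3 Krt6b-high libraries at 100 CPM.

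Libraries were grouped by their labels and by that rule. The 92 spike-in entries, at 0 counts, were dropped, and 55141 of 55487 genes matched an annotation entry for coordinates and overlaps (an exon overlap of at least 20 bases). CPM were recomputed with TMM in edgeR 4.0.16 (R 4.3.3). Genes with at least 10 counts in at least 3 libraries were kept, Krt6b was left out, and log2 values used a prior count of 2. The 3 libraries were compared with the 12 by counts and medians without a test. Groups by label entered the quasi-likelihood test of edgeR after filterByExpr, with Benjamini-Hochberg adjustment, shares of libraries with Fisher's exact test (scipy 1.17.1), and both kinds of script were tested on simulated counts with 200 changed genes. The authors compared groups with DESeq2, tried here as version 1.42.0. Further alternatives were other scalings, filters, prior counts and Krt6b thresholds, WT libraries alone as the others, and leaving out each library.

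Named are Krt6b, Krt16 and S100a8, the 20 genes above and 10 below with the largest differences, the 8 genes with the largest margin in each of the 3 libraries, members of 23 gene lists (445 symbols, 6 of them not matched as written), and genes the study stained or measured by qRT-PCR. Some list members are not reported here. Other genes are said to be named after their values were seen. The libraries and lists were chosen with earlier results of these data known. Library totals ran from 1962604 to 2567138 counts, no step named removes PCR duplicates, and limits on counts of 0 cover counting error only. Promoters were taken from RefSeq (GRCm38.p6). The genes Krt16, Krt6b and BC100530 have no entry in that table.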

Additional observations from a re-analysis of the deposited data

Results flagged for a closer look

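Within the labelled groups of 5 libraries, each list score was searched for a single library whose distance to its nearest neighbour exceeded 0.71 of the whole range of the group (Dixon's 95% value). Of 72 groups searched, 7 held such a library, where chance gives about 1 in 20. Non-lesional 3 was chosen for its Krt6b level, and many alarmin, Sprr and Lce3 genes passed the filter only through the Krt6b-high libraries, so that rate does not hold for its scores, which are a description. In the alarmin list, non-lesional 3 had a score of 2.61 against -0.17 to 0.22 in the other non-lesional libraries, and WT 1 had 0.45 against -0.24 to -0.07 in the other WT libraries. In the Sprr and Lce3 list, non-lesional 3 had 3.11 against -0.26 to 0.68, and WT 1 had 1.63 against -0.06 to 0.10. The 2 lesional libraries of high Krt6b were not among these, as their scores lay on 1 side of the other 3 lesional libraries in both lists. WT 1 also had a melanocyte score of -0.51 against -0.05 to 0.05 in the other WT libraries. Non-lesional 15 had a macrophage score of 0.33 against -0.09 to 0.02 and a sebaceous score of -0.27 against 0.16 to 0.31.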

How the results depend on the processing

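The 296 genes above were 211 to 382 under 5 other scalings and filters and 296 at thresholds of 50 and 200 CPM, and the 225 below were 181 to 240. With WT libraries alone as the others they were 655 and 604, against 5 libraries in place of 12. Leaving out each library gave 304 to 1416 above and 239 to 1015 below, both highest without non-lesional 3, and 401 and 366 below without lesional 2 and lesional 11. Of the list medians under these alternatives, 524 stayed within 1 SD of the list score among the 3 Krt6b-high libraries and 28 moved by more, most of them of the sebaceous list, whose 3 scores were nearly equal (0.31), so that this SD is no useful yardstick there. In lesional against WT libraries edgeR gave 0 genes without each library in turn, and DESeq2 gave 14. In non-lesional against WT libraries edgeR gave 0 to 5, the 5 without non-lesional replicate 6, and DESeq2 gave 1. The 5 were Oasl2, Ifitm3, Ddx60, Irf9 and Apol7a, all higher and all of the type I IFN list. Without a filter edgeR gave 18 of 27255 genes, 13 higher and 5 lower. Ifit1, Oasl2, Rtp4, Ifi44, Ddx60, Ifitm3, Irf9 and Rsad2 of that list were among the 13. Genes with at least 10 counts in every library gave medians of 1.38 for the alarmins (2 genes), 3.36 for Sprr and Lce3 (1 gene), 0.18 for normal differentiation (24), 1.54 for hair (3) and 0.11 for the neutrophil list (1). Without lesional 11 the medians of the neutrophil, proliferation and muscle lists were 0.08, 0.03 and -0.19, without non-lesional 3 they were 1.86, 0.52 and -1.61, and without lesional 2 the fibroblast and muscle lists had -0.68 and -1.21. Leaving out each library gave 0.11 to 0.39 for chemokines (highest without non-lesional 3, lowest without non-lesional replicate 12), -0.39 to -0.02 for Langerhans cells, T cells and mast cells (without lesional 2 and lesional 11) and -0.17 to -0.03 for basal epidermis (without lesional 11 and non-lesional 3), and 0.13 for proliferation without WT 1. The cause of these differences was not tested. At 1.96 to 2.57 counts for 1 CPM, values of non-lesional 3 under about 10 CPM rest on few counts. Replicate numbers run on across the labelled groups, and WT 1, lesional 2 and non-lesional 3 hold the first of them. Whether these numbers mark matched sets is not given in the sources used here. Libraries were therefore treated as unpaired, and libraries from the same animal or litter would not be independent.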
